A study of Homo sapiens with 18 samples.

Results

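S phase and DNA replication genes were described in MOLM-13, a human acute monocytic leukaemia cell line, in the deposited means of 6 groups. The set held 39 genes, named by function as rows of a table of 23713: origin licensing, replisome and nucleotide supply genes, with some of their regulators and partners. All 39 were found, and all 39 passed the filter on low values, a highest group of at least 1 FPKM, as did 11054 genes in all. By definition, FPKM are fragments scaled to transcript length and to sequencing depth. The filter was passed in every group, since the lowest value of any of the 39 was 6.92 FPKM.

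The groups were cells given DMSO, the solvent, for 4 h, IACS-9571 for 4 h, dTRIM24 for 4 h, and each of the same 3 treatments for 24 h. IACS-9571 is a small molecule that occupies the acetyl-lysine pockets (bromodomains) of TRIM24 and BRPF1. dTRIM24 is a degrader, in which a TRIM24 bromodomain ligand is linked to a ligand of the VHL ubiquitin ligase. Every group was the same line, so the results describe 1 leukaemia line. The labels give 18 samples, 3 in a group, but the table holds 1 mean per group, so no value has a replicate error and no difference was tested. The sources used here do not state doses, and nothing in the labels says whether samples of a group were separate cultures. Samples were matched by cell number before spike-in RNA was added. In such bulk RNA, fewer cells in S phase and less RNA per cell cannot be told apart.

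Before S phase, ORC, CDC6 and CDT1 load the MCM2 to MCM7 helicase onto origins, a step called licensing. In S phase CDC45 and GINS turn the loaded ring into the active helicase, primase and the DNA polymerases copy the strands around the sliding clamp PCNA, and ribonucleotide reductase and thymidylate synthase make the DNA precursors. Many of these genes are transcribed in late G1 and S phase under E2F factors, which the retinoblastoma protein holds in check, so their RNA is widely read as a sign of proliferation.

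The promoters were searched for the letters of the E2F motif, since shared control by E2F is the textbook link between these genes. Windows from 250 bases before to 50 bases after each start came from RefSeq (GRCh38.p14), a later build than the hg19 named for the FPKM values. They matched 35 of the 39 genes, with 44 promoters. The E2F motif was searched as TTCCCGC or TTGGCGC or TTCGCGC, and the CCAAT box as CCAAT, on both strands. TTGGCGC and TTCGCGC can share the bases GCGC when read on opposite strands, and the reverse CCAAT box can share bases with TTGGCGC. E2F letters stood in 31 of the 44 promoters (70.5%), against 11.0% of all 35116 promoters in the table. By gene, 29 of 35 (82.9%) had them in at least 1 promoter, against 13.1% of 27305 genes. The CCAAT letters stood in 21 of 35 genes (60.0%), against 39.7% of all, and both motifs in 18 of 35 (51.4%), against 5.71%. A match is a run of letters, and no factor binding was measured.

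The following 3 promoters without an annotated exon show the forms of these matches, each as the 120 bases before the start on the gene's own strand, with E2F and CCAAT matches in capitals. CHAF1A, with the highest difference under dTRIM24 at 24 h, lies at chr19:4402520-4402639 (plus strand). MCM6, from the helicase, lies at chr2:135876444-135876563 (minus strand). POLA1, the catalytic subunit of polymerase alpha, lies at chrX:24693798-24693917 (plus strand). CHAF1A and MCM6 each hold 2 E2F and 2 CCAAT matches, and POLA1 holds 1 of each. The matches are not all separate sites. In CHAF1A the 2 CCAAT matches are the 2 strands of 1 stretch, CCAATTGG, which also runs into an E2F match. In MCM6 the 2 E2F matches overlap in the stretch TTGGCGCGAA.
CHAF1A: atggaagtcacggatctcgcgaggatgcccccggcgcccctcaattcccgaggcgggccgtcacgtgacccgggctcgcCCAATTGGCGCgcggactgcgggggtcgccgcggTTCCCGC
MCM6: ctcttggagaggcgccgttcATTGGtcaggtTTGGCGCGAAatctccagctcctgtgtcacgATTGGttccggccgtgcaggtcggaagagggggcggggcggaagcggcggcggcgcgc
POLA1: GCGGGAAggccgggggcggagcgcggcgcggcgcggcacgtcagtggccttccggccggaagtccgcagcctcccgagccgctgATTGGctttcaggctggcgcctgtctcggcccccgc

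Shorter windows of 30 bases upstream of the start show the E2F letters, again in capitals, in 4 more genes. They come from CDT1 (chr16:88803748-88803777, plus strand), E2F1 (chr20:33686387-33686416, minus strand), PCNA (chr20:5126664-5126693, minus strand) and TYMS (chr18:657602-657631, plus strand). CDT1 has 2 matches in its window and the other genes 1 each.
CDT1: gcgcccGCGGGAAatttgGCGGGAAccgcg
E2F1: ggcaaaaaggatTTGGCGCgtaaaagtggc
PCNA: gcagcgtcagggGCGGGAAaaggcgtgcgt
TYMS: cgcgggacggccGCGGGAAaaggcgcgcgg

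MOLM-13 expressed the whole set. Within a group the 39 genes spanned 34.3-fold to 47.9-fold in FPKM, a scale already divided by transcript length, and in each of the 6 groups CLSPN was the lowest and PCNA the highest. The median of the 39 was lowest with IACS-9571 at 24 h (32.0 FPKM) and highest with IACS-9571 at 4 h (41.2 FPKM), against medians of 9.87 to 12.4 FPKM over all kept genes. The cell label was checked with marker genes: 14 of 16 myeloid markers were kept, while CD14 and CEBPE stayed at 0.208 FPKM or less. Of markers of other cells, 0 of 6 T lymphoid, 0 of 6 erythroid, 1 of 5 B lymphoid (PAX5) and 2 of 7 epithelial and fibroblast genes (KRT8 and KRT18) were kept. Column totals ran from 771830 to 1058351 FPKM, and the depth behind them is unknown. The spike-in RNAs were nearly level: their median ratio to their geometric mean over the groups was 0.990 to 1.02. The columns were thus level in spike-ins but not in totals, and how they had been scaled was not tested.

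In the licensing group, ORC1 (22.2 to 29.5 FPKM over the 6 groups), the largest subunit of the origin recognition complex, and ORC6 were the low end. ORC6, its smallest subunit, had 20.4 FPKM with DMSO, 21.0 FPKM with IACS-9571 and 22.6 FPKM with dTRIM24 at 4 h, and 19.0, 17.6 and 22.5 FPKM in that order at 24 h. CDC6, the ATPase that joins ORC in loading the helicase, had 38.5 FPKM with DMSO, 41.2 FPKM with IACS-9571 and 45.0 FPKM with dTRIM24 at 4 h, and 34.5, 32.0 and 39.9 FPKM in that order at 24 h. CDT1, its partner in loading, had 40.3, 38.9 and 31.6 FPKM at 4 h and 25.6, 24.4 and 38.1 FPKM at 24 h. CDC6 and CDT1 thus stood in opposite orders at 4 h, CDC6 highest and CDT1 lowest with dTRIM24. Of all 39 genes CDT1 had the widest span between groups (1.65-fold).

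The 6 subunits of the MCM helicase were among the most abundant members, within 1.92-fold to 2.05-fold of each other in each group. MCM2 had 91.3 FPKM with DMSO, 83.2 FPKM with IACS-9571 and 77.3 FPKM with dTRIM24 at 4 h, and 64.4, 62.2 and 82.5 FPKM at 24 h. MCM5 had 116, 105 and 94.3 FPKM at 4 h and 77.1, 72.8 and 102 FPKM at 24 h. MCM7 had 176, 161 and 153 FPKM at 4 h and 129, 123 and 167 FPKM at 24 h. These 3 subunits kept the order DMSO, IACS-9571, dTRIM24 at 4 h and had dTRIM24 on top at 24 h. MCM3 (113 to 147 FPKM) had the same 4 h order, while MCM4 (122 to 160.0 FPKM) and MCM6 (82.1 to 106 FPKM) were nearly level at 4 h.

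Helicase activation genes were lower. CDC45 had 34.9 FPKM with DMSO, 33.3 FPKM with IACS-9571 and 32.8 FPKM with dTRIM24 at 4 h, and 29.3, 25.1 and 34.0 FPKM at 24 h. Of the 4 GINS subunits, which form 1 complex in equal number, GINS2 was 4.40-fold to 4.87-fold above GINS4 in FPKM. GINS4 had 11.6, 11.6 and 11.4 FPKM at 4 h and 8.86, 9.02 and 11.9 FPKM at 24 h, and GINS3 had 20.8, 19.7 and 21.1 FPKM and then 17.96, 16.3 and 22.01 FPKM. Neither GINS subunit differed much between treatments at 4 h, and both had their top value with dTRIM24 at 24 h. GINS1 ran from 15.2 to 20.9 FPKM, GINS2 from 41.3 to 53.3 FPKM, and MCM10, which helps the helicase start, from 19.1 to 24.1 FPKM.

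Polymerase and primase genes spanned the least between groups. POLE2, a non-catalytic subunit of the leading-strand polymerase, had 17.5 FPKM with DMSO, 17.7 FPKM with IACS-9571 and 17.4 FPKM with dTRIM24 at 4 h, and 15.5, 16.3 and 17.3 FPKM at 24 h, the narrowest span of the 39 (1.14-fold). PRIM1, the catalytic primase subunit, had 66.5, 73.6 and 69.2 FPKM at 4 h and 63.5, 62.1 and 71.9 FPKM at 24 h. POLA2 had 30.7, 30.4 and 28.4 FPKM at 4 h and 25.5, 24.4 and 29.1 FPKM at 24 h. At 4 h PRIM1 was highest with IACS-9571 and POLA2 lowest with dTRIM24, while POLE2 was level. POLA1 ran from 11.9 to 14.3 FPKM.

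PCNA, the sliding clamp, was the most abundant member, with 366 FPKM with DMSO, 374 FPKM with IACS-9571 and 360.3 FPKM with dTRIM24 at 4 h, and 312, 284 and 347 FPKM at 24 h. Of the clamp loader subunits, RFC3 had 85.3, 82.4 and 89.6 FPKM at 4 h and 80.6, 71.2 and 86.2 FPKM at 24 h. RFC4 had 38.5, 42.2 and 41.0 FPKM at 4 h and 36.9, 35.7 and 43.5 FPKM at 24 h. RFC3 was therefore lower, and RFC4 higher, with IACS-9571 than with DMSO at 4 h, though both belong to the same complex. RFC5 had 51.1, 50.7 and 51.3 FPKM at 4 h and 44.9, 38.8 and 49.0 FPKM at 24 h, and RFC2 ran from 32.4 to 43.4 FPKM. LIG1, the ligase that seals Okazaki fragments, had 31.6, 31.6 and 28.5 FPKM at 4 h and 21.8, 21.98 and 33.2 FPKM at 24 h. FEN1, the flap nuclease that trims them, ran from 56.9 to 79.8 FPKM. LIG1 was nearly level between DMSO and IACS-9571 at both times.

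Nucleotide supply genes had their lowest value with IACS-9571 at 24 h. TYMS, thymidylate synthase, had 257 FPKM with DMSO, 253 FPKM with IACS-9571 and 257 FPKM with dTRIM24 at 4 h, and 217, 192 and 250.4 FPKM at 24 h. RRM1 and RRM2 are the large and small subunits of ribonucleotide reductase. RRM1 had 107, 108 and 108 FPKM at 4 h and 97.2, 84.7 and 101 FPKM at 24 h. RRM2 had 93.3, 95.7 and 98.2 FPKM at 4 h and 86.8, 73.2 and 94.6 FPKM at 24 h. All 3 genes were nearly level at 4 h and ordered IACS-9571, DMSO, dTRIM24 from low to high at 24 h.

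The 3 regulators of the G1 to S transition were among the lower members. E2F1, an activating E2F, ran from 8.04 to 11.8 FPKM, and CCNE1, cyclin E1, which activates CDK2, from 11.6 to 15.2 FPKM. CCNE2, cyclin E2, had 31.8 FPKM with DMSO, 30.7 FPKM with IACS-9571 and 34.6 FPKM with dTRIM24 at 4 h, and 28.2, 25.2 and 31.7 FPKM at 24 h. All 3 were lowest with IACS-9571 at 24 h. CCNE2 was highest with dTRIM24 at 4 h, E2F1 and CCNE1 with dTRIM24 at 24 h.

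The last group held genes of fork protection, chromatin assembly and histone mRNA. CLSPN, claspin, an adaptor of the replication checkpoint, had 7.64 FPKM with DMSO, 8.68 FPKM with IACS-9571 and 8.48 FPKM with dTRIM24 at 4 h, and 7.22, 6.92 and 10.1 FPKM at 24 h. TIPIN, which works with it at the fork, had 31.6, 33.1 and 34.7 FPKM at 4 h and 32.4, 29.4 and 34.3 FPKM at 24 h. Both were above DMSO with dTRIM24 at each time. CHAF1A, the large subunit of the CAF-1 histone chaperone, had 29.2, 30.03 and 26.9 FPKM at 4 h and 22.2, 23.2 and 35.3 FPKM at 24 h. UHRF1, which brings the methyltransferase DNMT1 to newly copied DNA, had 67.7, 71.3 and 68.8 FPKM at 4 h and 51.6, 53.3 and 81.2 FPKM at 24 h. In both, IACS-9571 at 24 h was close to DMSO and dTRIM24 was the highest of the 6 groups. CHAF1B ran from 14.9 to 20.2 FPKM, and SLBP, which binds the stem-loop of histone mRNA, from 89.8 to 116 FPKM.

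**Figure D1:**
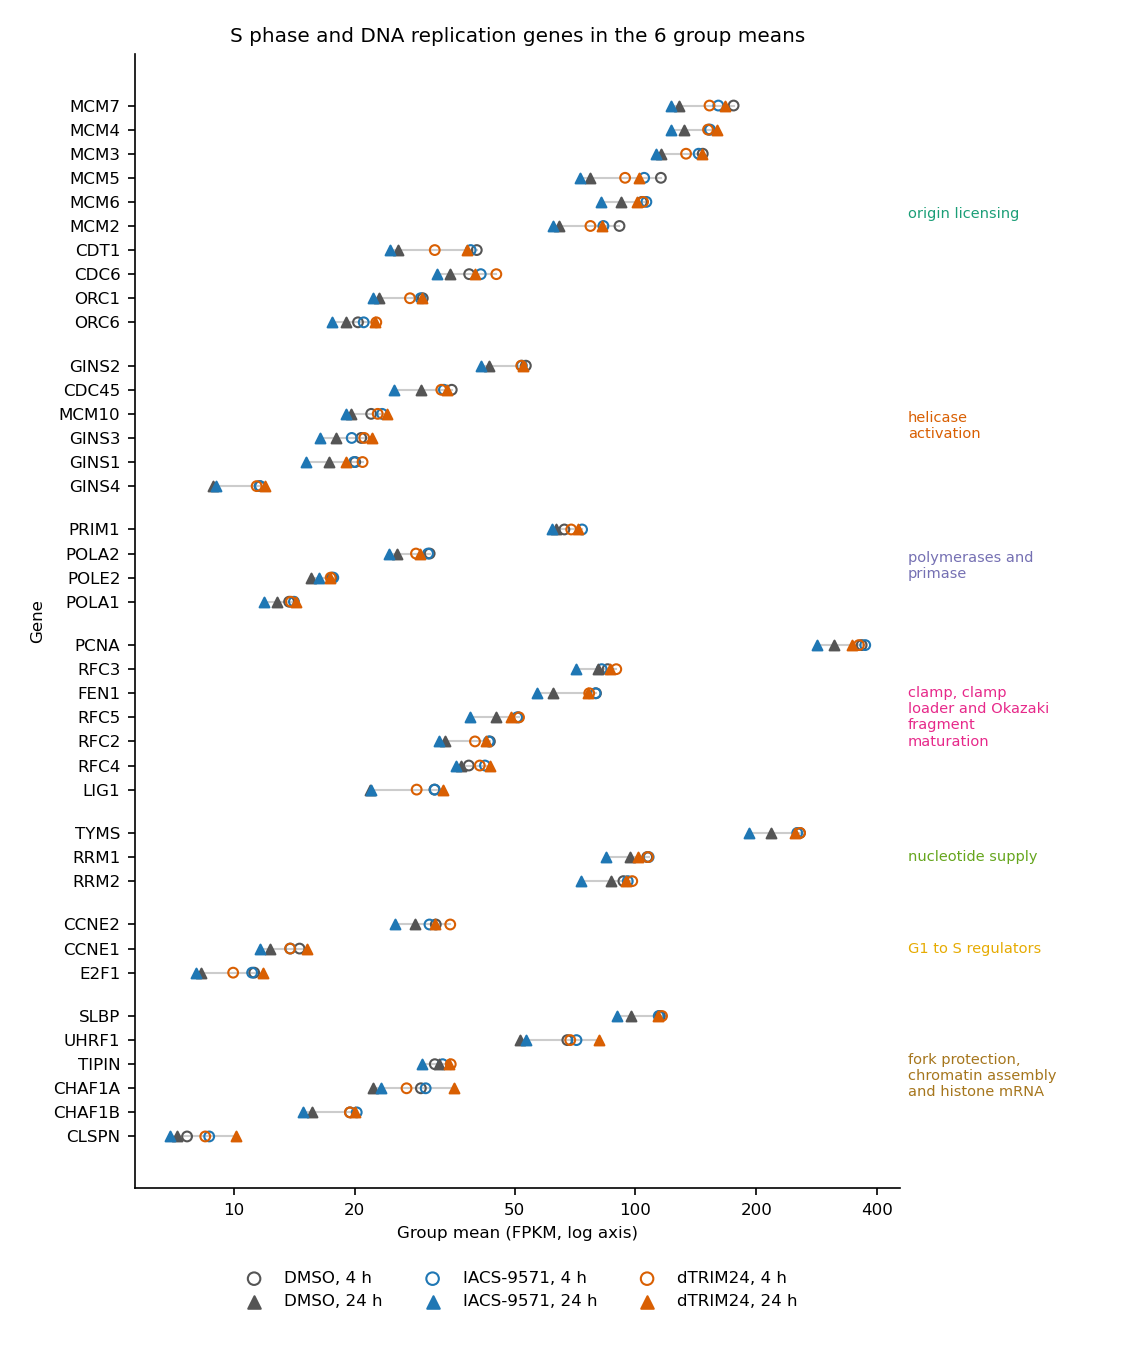
Deposited group means of the 39 genes in FPKM (horizontal log axis), grouped by role, with open circles for 4 h, triangles for 24 h, colours for DMSO, IACS-9571 and dTRIM24, and a grey line over the span of the 6 groups. The blue triangles (IACS-9571, 24 h) are the lowest value of 34 genes, and no gene spans more than 1.65-fold.

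Comparisons below are differences of log2(FPKM + 1) between group means, so that a value of 1 is a 2-fold difference. No member differed by 2-fold in any of the 9 comparisons. Among all kept genes such differences were as rare as 0.289% (IACS-9571 against DMSO), 0.688% (dTRIM24 against DMSO) and 0.597% (dTRIM24 against IACS-9571) at 4 h, and 0.172%, 0.199% and 0.217% in the same order at 24 h. From 4 h to 24 h they were 0.217% in DMSO, 0.443% with IACS-9571 and 0.669% with dTRIM24. A count of 0 in 39 is near these shares. The only error measure in the table is the spread of 25 spike-in RNAs between group means (SD 0.11 to 0.22 on the same scale), which is no replicate error but exceeds many of the differences below. The 3 comparisons at a time rest on 3 columns and share them, as do comparisons over time with those between compounds.

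At 4 h the members were centred where all genes were, with either compound. With IACS-9571 the members' median difference from DMSO was -0.004, and 19 members lay above DMSO and 20 below, against 50.1% above over all kept genes. The lowest were 3 helicase subunits, MCM5 (-0.14), MCM2 (-0.13) and MCM7 (-0.13), then GINS3 (-0.08). The highest were CLSPN (0.16), PRIM1 (0.14), RFC4 (0.13) and CDC6 (0.09). Subunits of 1 complex were on both sides, MCM5 below and MCM6 (0.04) above DMSO.

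With dTRIM24 at 4 h the genes spread more widely around the same centre. The members' median was -0.001 against -0.009 over all kept genes, with 19 above DMSO and 20 below (47.8% of all kept genes were above). CDT1 was the lowest member (-0.34), followed by MCM5 (-0.29), MCM2 (-0.24) and MCM7 (-0.20). CDC6 was the highest (0.22), followed by ORC6 (0.14), CLSPN (0.13) and TIPIN (0.13). The extremes at both ends were therefore mostly licensing genes, whose median was -0.12 with 7 of 10 below DMSO.

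The compounds were next compared with each other at 4 h, at doses not given. The median of dTRIM24 against IACS-9571 was -0.03 for the members and -0.02 for all kept genes, and 11 members lay above and 28 below, against 42.6% above over all. CDT1 (-0.29), MCM5 (-0.16), CHAF1A (-0.15) and LIG1 (-0.14) were lower with dTRIM24. CCNE2 (0.17), CDC6 (0.13), RFC3 (0.12) and ORC6 (0.10) were higher. All 4 polymerase and primase genes were lower with dTRIM24, by 0.02 to 0.10 on the log2 scale.

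At 24 h IACS-9571 left most members slightly below DMSO. The members' median was -0.08 against -0.02 over all kept genes, and 34 of 39 lay below DMSO, against 57.4% of all kept genes. All 10 licensing genes were below (median -0.08), as were all 3 nucleotide supply genes (median -0.20). RRM2 was the lowest member (-0.24), followed by CDC45 (-0.21), RFC5 (-0.21) and RRM1 (-0.20), with TYMS at -0.18. The 5 members above DMSO were POLE2 (0.06), CHAF1A (0.06), UHRF1 (0.04), GINS4 (0.02) and LIG1 (0.01). The SD of the spike-ins in this comparison was 0.12, so that most single members lie within it. The median stayed below 0 under all alternatives tried, from -0.08 to -0.03. Of these, the threshold and the floors could not change it, and rescaling to the nearly level spike-ins could hardly do so. Of a list of 12 housekeeping genes 11 were also below DMSO here, with a median of -0.12.

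At 24 h with dTRIM24 all 39 members stood above DMSO on the deposited scale, but so did nearly all genes. Their median was 0.28 against 0.26 over all kept genes, and 96.8% of all kept genes were above DMSO. Relative to the median of all kept genes 20 members were higher and 19 lower, and with each column centred on its own median the members' median was -0.01. By 1.5-fold or more, 2 members were higher, CHAF1A (0.64) and UHRF1 (0.64), a share of 5.13% against 4.75% of all kept genes. LIG1 (0.58) and CDT1 (0.55) came next. Relative to the median of all kept genes these 4 differences were 0.39, 0.39, 0.33 and 0.30. Between the same columns the median difference of the 25 spike-ins was -0.06, against 0.26 over all kept genes. Samples were matched by cell number, so centring also takes out any difference in RNA per cell that all genes share. Which scale is right was not tested.

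At the other end of that comparison were RRM1 (0.06), TIPIN (0.08), RFC3 (0.10) and RFC5 (0.12). Relative to the median of all kept genes they were at -0.20, -0.18, -0.16 and -0.13, so their side depends on the scale. As deposited, the median difference by role was highest for fork protection, chromatin and histone mRNA genes (0.39) and licensing genes (0.34). It was lowest for polymerases and primase (0.16) and nucleotide supply (0.12), of which 0 of 7 genes were above the median of all kept genes. Within the fork and chromatin group the values ran from TIPIN at 0.08 to CHAF1A at 0.64.

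The members stood further from all genes when dTRIM24 was set against IACS-9571 at 24 h. The median was 0.37 for the members and 0.28 over all kept genes, and 39 of 39 were higher with dTRIM24, as were 98.4% of all kept genes. Relative to the median of all kept genes 32 members were higher and 7 lower. Other lists stood above it too, 26 of 30 mitosis genes (median 0.35) and 9 of 12 housekeeping genes (median 0.33). Of 18 other licensing and firing genes 9 did (median 0.27). By 1.5-fold or more, CDT1 (0.62), UHRF1 (0.60) and CHAF1A (0.59) were higher, 3 of 39 against 3.18% of all kept genes, and LIG1 followed (0.57). The lowest were POLE2 (0.08), PRIM1 (0.21), TIPIN (0.22) and POLA2 (0.24). All 10 licensing genes and all 6 helicase activation genes lay above the median of all kept genes, and 0 of the 4 polymerase and primase genes did.

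**Figure D2:**
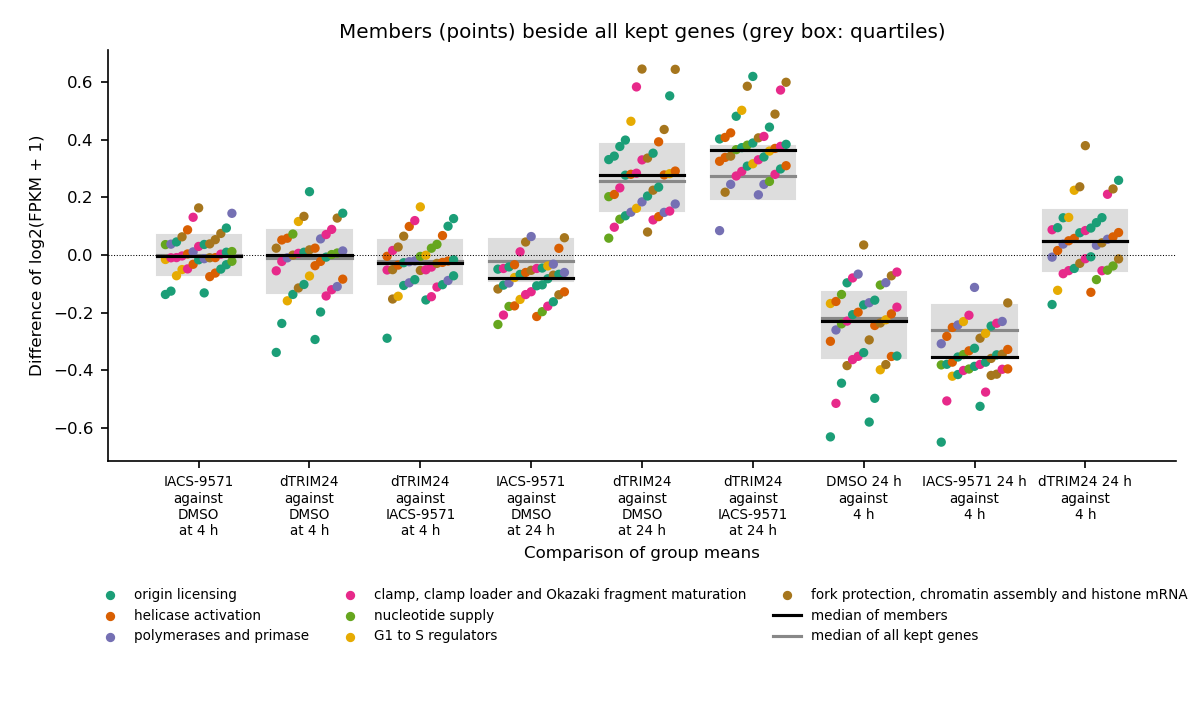
Differences of log2(FPKM + 1) for the 39 genes (points, coloured by role) in the 9 comparisons on the horizontal axis, with black lines for the members' medians, grey lines for the medians of all kept genes and grey boxes for the quartiles of all kept genes. The black and grey lines lie close together at 4 h and for dTRIM24 against DMSO at 24 h (0.28 and 0.26), and further apart for dTRIM24 against IACS-9571 at 24 h (0.37 and 0.28).

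Time in culture with DMSO alone was the next comparison. At 24 h 38 of 39 members were below their 4 h level on the deposited scale, with TIPIN the exception (0.03), while 5.05% of all kept genes were above it. The members' median was -0.23 against -0.22 over all kept genes, and it was 0.04 with each column centred on its own median and 0.03 after quantile normalization. CDT1 was lowest (-0.63) and was the only member lower by 1.5-fold or more, against 3.64% of all kept genes. MCM5 (-0.58), LIG1 (-0.51) and MCM2 (-0.50) followed. Relative to the median of all kept genes CDT1 was at -0.41 and MCM5 at -0.36.

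With IACS-9571 all 39 members were lower at 24 h than at 4 h, and 3.04% of all kept genes were higher. Their median was -0.35 against -0.26 over all kept genes. CDT1 (-0.65) was again the 1 member lower by 1.5-fold or more (2.42% of all kept genes), followed by MCM5 (-0.52) and LIG1 (-0.51), and POLE2 (-0.11) was the closest to its 4 h level. In all, 9 members were above the median of all kept genes. Centred on column medians, the members' median was still below 0 (-0.08).

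With dTRIM24 both times were nearly level. The members' median was 0.05, equal to that of all kept genes to 2 decimals, and 24 members were higher at 24 h and 15 lower, against 61.4% higher over all kept genes. CHAF1A (0.38), CDT1 (0.26), UHRF1 (0.24) and CLSPN (0.23) were highest. CDC6 (-0.17), GINS1 (-0.13) and CCNE2 (-0.12) were lowest, followed by RRM1 (-0.09). CDC6 and CDT1, the pair that loads the helicase, were again at opposite ends.

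Set against DMSO at 4 h, the members with dTRIM24 at 24 h were close to the level in that group. Their ratio of FPKM had a median of 0.995, from 0.881 (MCM5) to 1.32 (CLSPN), and 33 of 39 were within 10%, against 66.6% of all kept genes. For DMSO at 24 h the median ratio was 0.848, and 9 of 39 were within 10%, against 24.5% of all. For IACS-9571 at 24 h it was 0.785, and 5 of 39 were within 10%, against 20.3%. IACS-9571 at 24 h was the lowest of the 6 groups for 34 members (55.4% of all kept genes), and DMSO at 24 h for the other 5 (40.5%), GINS4, POLE2, LIG1, UHRF1 and CHAF1A. All these ratios are on the deposited scale, where the median of all kept genes was itself 9.96 FPKM with DMSO at 24 h and 12.4 FPKM with dTRIM24.

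Differences among the members ran with the GC content of their transcripts, as they did over all genes. GC content, the median over all annotated transcripts of a gene, ran from 38% (POLE2) to 65.3% (CDT1). The members' median was 49.98%, close to the 49.6% of all kept genes. For dTRIM24 against DMSO at 4 h, Spearman's rho across the 39 genes was -0.74 (-0.72 across 10243 kept genes). At 24 h it was 0.74 (0.60), with the sign turned. For DMSO at 24 h against 4 h it was -0.90 (-0.72). For dTRIM24 against IACS-9571 it was -0.57 (-0.60) at 4 h and 0.79 (0.60) at 24 h. For IACS-9571 against DMSO it was -0.48 (-0.40) at 4 h and 0.31 (0.16) at 24 h. Genes are not independent replicates, and these genes share the libraries, so no p is given. The 13 members of lowest GC content (up to 45.4%) had a median of -0.10 in DMSO over time and the 13 of highest (from 52.2%) -0.38. For dTRIM24 against DMSO at 24 h these medians were 0.15 and 0.39. The part of GC content in the differences was not tested beyond taking its trend out.

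**Figure D3:**
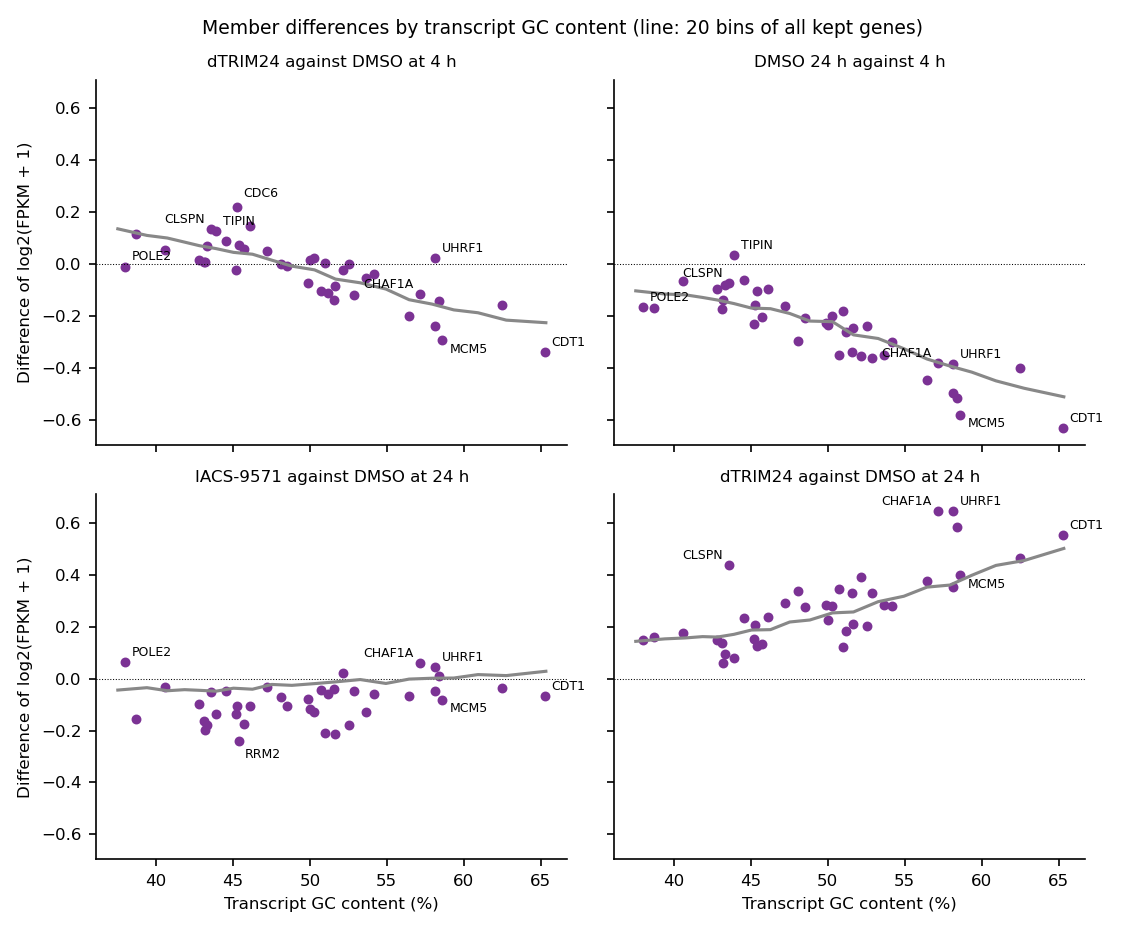
Differences of log2(FPKM + 1) (vertical axis) against transcript GC content in percent (horizontal axis) for the 39 genes in 4 comparisons, with a grey line through the medians of 20 GC bins of all kept genes and some genes named. The members follow the line in 3 panels, downward for dTRIM24 against DMSO at 4 h and for DMSO over time and upward for dTRIM24 against DMSO at 24 h, with CHAF1A, UHRF1 and CLSPN above it in the last and RRM2 below it in the IACS-9571 panel.

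With a cubic trend on GC content fitted across all kept genes and taken out, the order of the members changed in part, while many of the extremes stayed. For dTRIM24 against DMSO at 24 h the members' median was 0.01, and 22 of 39 were above 0, against 48.3% of all kept genes with a GC value. CHAF1A (0.29), UHRF1 (0.27), CLSPN (0.25) and LIG1 (0.21) still led, while CDT1, of the highest GC content, was at 0.07 and E2F1 at 0.03 (0.46 before). RFC5 (-0.14), RRM1 (-0.12) and TIPIN (-0.11) were lowest. For DMSO over time the median was -0.01, with MCM5 lowest (-0.20) and TIPIN highest (0.17). For dTRIM24 at 4 h CDC6 (0.16) and UHRF1 (0.13) were highest and MCM5 (-0.18) and CDT1 (-0.17) lowest, and the range between the quartiles of the members narrowed from 0.16 to 0.10.

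The values of IACS-9571 against DMSO at 24 h were little altered by this step. The members' median was -0.06 (-0.08 before), and 33 of 39 were below 0, against 50.5% of all kept genes. RRM2 (-0.21), CDC45 (-0.20), RFC5 (-0.19), RRM1 (-0.16) and TYMS (-0.16) were again the lowest, and all 10 licensing genes were below 0. Against IACS-9571, dTRIM24 had a members' median of 0.08 (0.37 before), with 37 of 39 above 0, against 52.3%, and POLE2 (-0.12) and POLA2 (-0.04) below. For IACS-9571 at 24 h against 4 h the median was -0.08 (-0.35 before), and 34 of 39 were below 0, against 51.2%. These 3 comparisons share the IACS-9571 column at 24 h. The members were not alone in them. In the order given, 24, 28 and 27 of 30 mitosis genes lay on the same side of 0 as the members' median. So did 11, 8 and 11 of 12 housekeeping genes, and 11, 14 and 8 of 18 other licensing and firing genes.

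**Figure D4:**
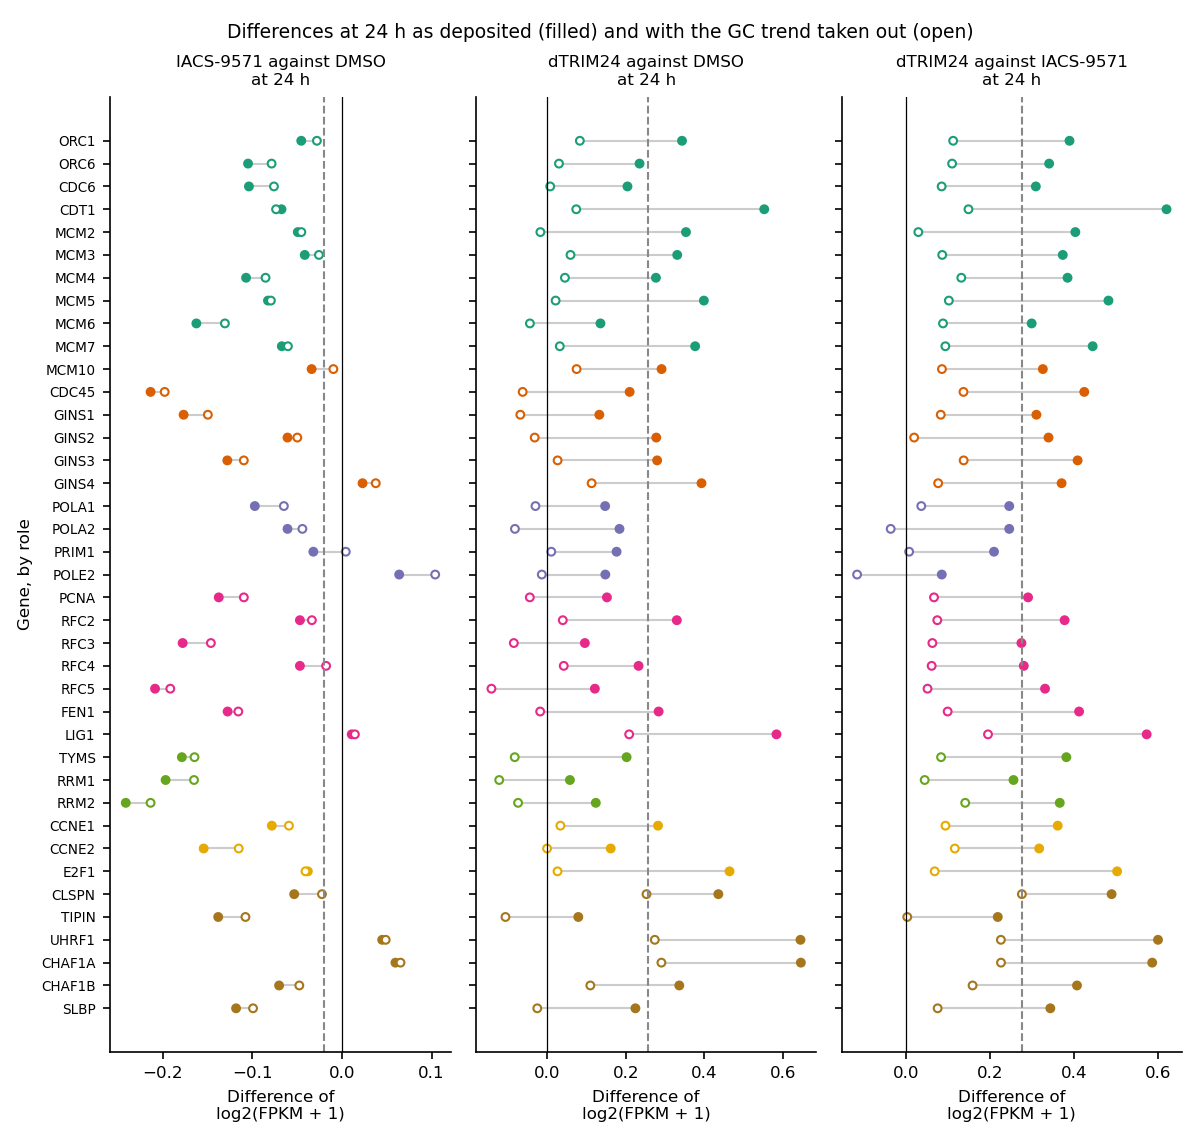
Differences of log2(FPKM + 1) at 24 h (horizontal axes, a scale of their own in each panel) for the 39 genes in order of role, as deposited (filled points) and with the GC trend taken out (open points), with a dashed line at the median of all kept genes as deposited. In the middle panel the filled points lie at 0.06 to 0.64 and the open points around 0 with CHAF1A, UHRF1, CLSPN and LIG1 to the right, and in the left panel most points of both kinds lie below 0.

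Other genes of the same processes were taken from lists by function. Of 18 other licensing and firing genes 18 were above DMSO with dTRIM24 at 24 h (median 0.23), and of 23 other replisome genes 23 (median 0.27), near the 96.8% of all kept genes. By 1.5-fold or more, 1 of the former and 2 of the latter were higher, near the 4.75% of all kept genes. RECQL4, a helicase of origin firing, was highest among the firing genes, with 11.7 FPKM against 6.83 FPKM in DMSO. CHTF18, of an alternative clamp loader, had 5.11 FPKM against 2.53 FPKM, POLD1, the catalytic subunit of polymerase delta, 23.2 FPKM against 14.7 FPKM, and POLE, that of polymerase epsilon, 12.7 FPKM against 8.29 FPKM. POLE thus differed by 0.56 and its partner POLE2 by 0.15. DBF4, which activates the CDC7 kinase, had 19.6 FPKM with DMSO at 24 h and 18.6 FPKM at 4 h, and DSCC1, of the same loader as CHTF18, 22.6 FPKM and 21.7 FPKM, so that both were above their 4 h level.

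Of 16 other nucleotide supply genes, 15 were above DMSO with dTRIM24 at 24 h (median 0.19). The exception was SAMHD1, which breaks down DNA precursors, with 43.9 FPKM against 45.7 FPKM. DTYMK, thymidylate kinase, had 61.0 FPKM against 42.5 FPKM. With IACS-9571 at 24 h 14 of the 16 were below DMSO (median -0.06), against 57.4% of all kept genes (median -0.02). TK1, thymidine kinase, had 39.6 FPKM against 48.6 FPKM there, and 56.1 FPKM with dTRIM24. TK1 was thus ordered like TYMS, RRM1 and RRM2 at 24 h, where 96.8% of all kept genes were above DMSO with dTRIM24. At 4 h, where those genes were nearly level, TK1 had 71.5 FPKM with DMSO, 61.3 FPKM with IACS-9571 and 57.6 FPKM with dTRIM24.

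In the E2F, RB and G1 cyclin list all 21 genes were above DMSO with dTRIM24 at 24 h (median 0.25), as were 96.8% of all kept genes. With IACS-9571 17 were below DMSO (median -0.07), against 57.4% of all kept genes. E2F8, a repressive E2F, was above DMSO with both, at 22.9 FPKM with IACS-9571 and 27.5 FPKM with dTRIM24 against 19.0 FPKM at 24 h. The 14 checkpoint genes had medians of 0.20 and -0.05 in the same comparisons, with CHEK1, the checkpoint kinase that ATR activates with the help of claspin, at 25.9 and 21.4 FPKM against 23.9 FPKM. The 7 replicative chromatin genes had medians of 0.28 and -0.06. Among them DNMT1, the partner of UHRF1, had 79.5 FPKM with dTRIM24 and 53.7 FPKM with IACS-9571 against 53.1 FPKM at 24 h, the order seen for UHRF1 itself.

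Mitosis genes, active after S phase, were listed for contrast. With dTRIM24 at 24 h all 30 were above DMSO (median 0.25), near the 96.8% of all kept genes. With IACS-9571 at 24 h 25 were below DMSO (median -0.10), against 57.4% of all kept genes. The sign of these medians thus did not set S phase genes apart from mitosis genes. CENPF and CENPE, of the kinetochore, had 28.8 FPKM and 5.69 FPKM with dTRIM24 against 15.3 FPKM and 2.75 FPKM with DMSO, a wider difference than any of the 39 members showed. The 12 housekeeping genes had a median of -0.10 for IACS-9571 against DMSO at 24 h with the GC trend taken out. The extremes among them for dTRIM24 at 24 h were SDHA, with 129 FPKM with dTRIM24 against 93.9 FPKM with DMSO, and HPRT1, with 79.5 FPKM against 79.7 FPKM.

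Some values may hold reads of other genes, since no source used here says how strand was handled. By the GENCODE 29 annotation, 19 of the 39 genes share an exon with another gene, 15 of them with 1 on the opposite strand, and 6 have pseudogenes named as copies (PCNA, RFC3, RFC5, FEN1, TYMS and RRM2). For TYMS the partner ENOSF1 was low (3.18 to 4.26 FPKM), and for MCM7 so was AP4M1 (4.19 to 6.12 FPKM). PRIM1 overlaps NACA, which had 1491 to 1808 FPKM, and FEN1 overlaps TMEM258 (285 to 388 FPKM) and FADS2. RFC4 overlaps EIF4A2 (84.9 to 104 FPKM), RFC5 WSB2 (26.4 to 37.2 FPKM), CCNE2 INTS8 (32.7 to 38.3 FPKM) and CHAF1A UBXN6, each on the opposite strand. UBXN6 had 18.4 FPKM with DMSO, 18.6 FPKM with IACS-9571 and 26.6 FPKM with dTRIM24 at 24 h, where CHAF1A had 22.2, 23.2 and 35.3 FPKM. FADS2 had 21.1 FPKM with DMSO, 56.6 FPKM with IACS-9571 and 41.7 FPKM with dTRIM24 at 4 h, while FEN1 had 79.8, 79.6 and 76.7 FPKM. CHAF1B overlaps MORC3 on its own strand (13.8 to 17.4 FPKM). On the opposite strand GINS2 overlaps GSE1 (17.3 to 24.5 FPKM) and MCM2 overlaps TPRA1 (7.05 to 10.8 FPKM). Reads of such pairs cannot be told apart here. The values of PRIM1, FEN1, RFC4, RFC5, CCNE2, CHAF1A, CHAF1B and GINS2, among others, are uncertain for this reason.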

How the data were processed

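RNA of 18 samples, 3 in each of 6 groups, was sequenced on an Illumina NextSeq with ERCC spike-ins, per the labels' protocols. The deposited values are FPKM. For them the submitters' processing notes name TopHat2, Cuffnorm and hg19, while no source used here names versions, the annotation or how strand was handled. The deposited table has 1 mean per group, so planned tests on single libraries were not possible, no p-value was computed and the depth is unknown. The labels' treatment protocol gives 24 h for all samples. Groups follow the titles, time points and design, which name 4 h or 24 h.

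The 92 spike-ins and 1706 small RNA rows were left out. Genes with a highest group of at least 1 FPKM were kept (11054). Differences were of log2(FPKM + 1), with a 2-fold threshold. GC content came from GENCODE 29 by symbol, as the median over all annotated transcripts, for 10243 genes (92.7%). Short transcripts count in it, with a median length of 572 bases for MCM5 and 735 bases for CDT1, so the value of a single gene is rough. GENCODE 29 is of another build than hg19, and also gave exon overlaps. The members and lists were chosen with earlier results of these data known. All 39 members are named. The 4 highest and 4 lowest in each comparison of compounds have their values in all 6 groups. Of each other list genes were named from the 3 farthest from the median of all kept genes for dTRIM24 against DMSO at 24 h and the 3 farthest for DMSO over time. Alternatives are listed in the closing section. Only the differences and the calls at the 2-fold threshold were tested on simulated data. The differences put in were wider than any that a member showed. Tools were pandas 2.3.3, numpy 2.4.6, scipy 1.17.1 and matplotlib 3.10.9, under Python 3.11.15.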

Additional observations from a re-analysis of the deposited data

How the results depend on the processing

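The alternatives were pseudocounts of 0.1 and 0.5 FPKM, a floor of 5 FPKM, no floor, centring on column medians, quantile normalization, rescaling to the spike-ins, a 1.5-fold threshold and taking out the trend on GC content. Of 243 values of the members' summaries under them, 19 moved by the SD of the spike-ins or more. These were all in 4 comparisons whose column levels differ. For dTRIM24 against DMSO at 24 h the members' median (0.28) was -0.0125 with centring, 0.00574 with quantile normalization and 0.0109 with the GC trend out. For dTRIM24 against IACS-9571 at 24 h (0.37) it was 0.0642, 0.0458 and 0.0847 in that order. For DMSO over time (-0.23) it was 0.0391, 0.0281 and -0.0121, and for IACS-9571 over time (-0.35) -0.0763, -0.0528 and -0.0803. With no floor, rows near 0 FPKM entered the median of all genes, and the members' median relative to it was 0.19 and 0.24 for dTRIM24 against DMSO and IACS-9571 at 24 h and -0.27 for IACS-9571 over time. At a 1.5-fold threshold the counts of 0 members became 2, 3, 1 and 1 in the order of the comparisons above. Of 432 values of single members, 48 moved. None of these members was past 2-fold, so a change of sign was counted only as a move, and 22 values had another sign than on the deposited scale, all with centring, quantile normalization or the GC trend out. No paired analysis was possible because the table holds no columns of single libraries, and for the same reason leaving out each replicate was not run. The depth is unknown, and the spike-in SD (0.11 to 0.22) is the only gauge of error.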
